A study of Aspergillus nidulans with 12 samples.

Results

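The 6 genes fluG (AN4819), flbA (AN5893), flbB (AN7542), flbC (AN2421), flbD (AN0279) and flbE (AN0721) of Aspergillus nidulans were examined for chromatin peaks of the regulators VeA and LaeA. A peak was taken as a peak of a gene when the deposited list named that gene as nearest, and 6 of the 9485 genes named in the lists were followed. The lists held 48 peaks of these genes, of which 29 came from single libraries and 19 from lists called on pooled tags.

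fluG and the flb genes act early in asexual sporulation (conidiation), upstream of brlA, the gene for the transcription factor that starts conidiophore formation. FluG is needed for an extracellular signal that starts sporulation, FlbA dampens the G protein signalling that favours hyphal growth, and FlbB, FlbC and FlbD are DNA-binding factors that act on brlA, with FlbE as the partner of FlbB at the hyphal tip. VeA, a velvet family protein, moves into the nucleus in the dark and works there with LaeA, a regulator of secondary metabolism.

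Chromatin immunoprecipitation followed by sequencing (ChIP-seq) was done on cells grown for 24 h in liquid glucose minimal medium in the dark. The strains were RJW324.3 (veA::FLAG::AfriboB), RJW302.11 (laeA::FLAG::AfriboB with veA) and the untagged wild type (WT) RDIT9.32, with the FLAG epitope at the C terminus of the protein in both tagged strains. Each tagged strain was 1 recombinant from a sexual cross, so strain and tag cannot be told apart. Every strain had 3 anti-FLAG libraries and 1 library of anti-rabbit IgG, the negative control. No label says whether the libraries of a strain came from separate cultures, so that p-values measure only the spread between these libraries.

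Depth differed widely among the libraries. The anti-FLAG libraries held between 319742 tags (WT replicate 3) and 7974006 tags (WT replicate 1), and peak lists were 134 to 1831 peaks long in WT, 557 to 2471 in LaeA::FLAG and 4252 to 5783 in VeA::FLAG. Both the deepest library, with 134 peaks, and the shallowest, with 201, were WT, and LaeA::FLAG replicate 3 was the shortest list of a tagged strain with 557 peaks. Signal is the number of tags in a peak scaled to a library of 10 M tags, so 1 tag equalled 1.25 units in WT replicate 1 and 31.3 units in WT replicate 3. A count of tags carries a counting error only, and the 95% intervals given with tags are exact Poisson intervals that cover this error and no other.

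Peaks were found for all 6 genes, but few were found again in another library. The 48 peaks formed 25 loci when centres up to 100 bp apart were joined, and 12 of the 25 loci were present in 1 list only. The combined lists count as lists here, although they pool the same libraries. Only 3 loci had a peak in at least 2 libraries of a tagged strain. The same counts of loci over all genes are not given here, so these counts do not set the 6 genes apart. Few peaks recurred in the whole series as well. Of all combined peaks, 30.1% in VeA::FLAG and 10.1% in LaeA::FLAG lay within 100 bp of peaks of at least 2 libraries. A locus with a peak in all 3 VeA::FLAG libraries occurred once, in the flbC promoter, and a locus with a peak in all 3 LaeA::FLAG libraries occurred once, far upstream of flbA. By position, 21 of the 48 peaks lay in a promoter, taken as 1.5 kb upstream of the start of exon 1, 18 lay further upstream and 9 lay after the start. WT libraries had 3 peaks in all, at 2 loci, and none of them was in a promoter.

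**Figure D1:**
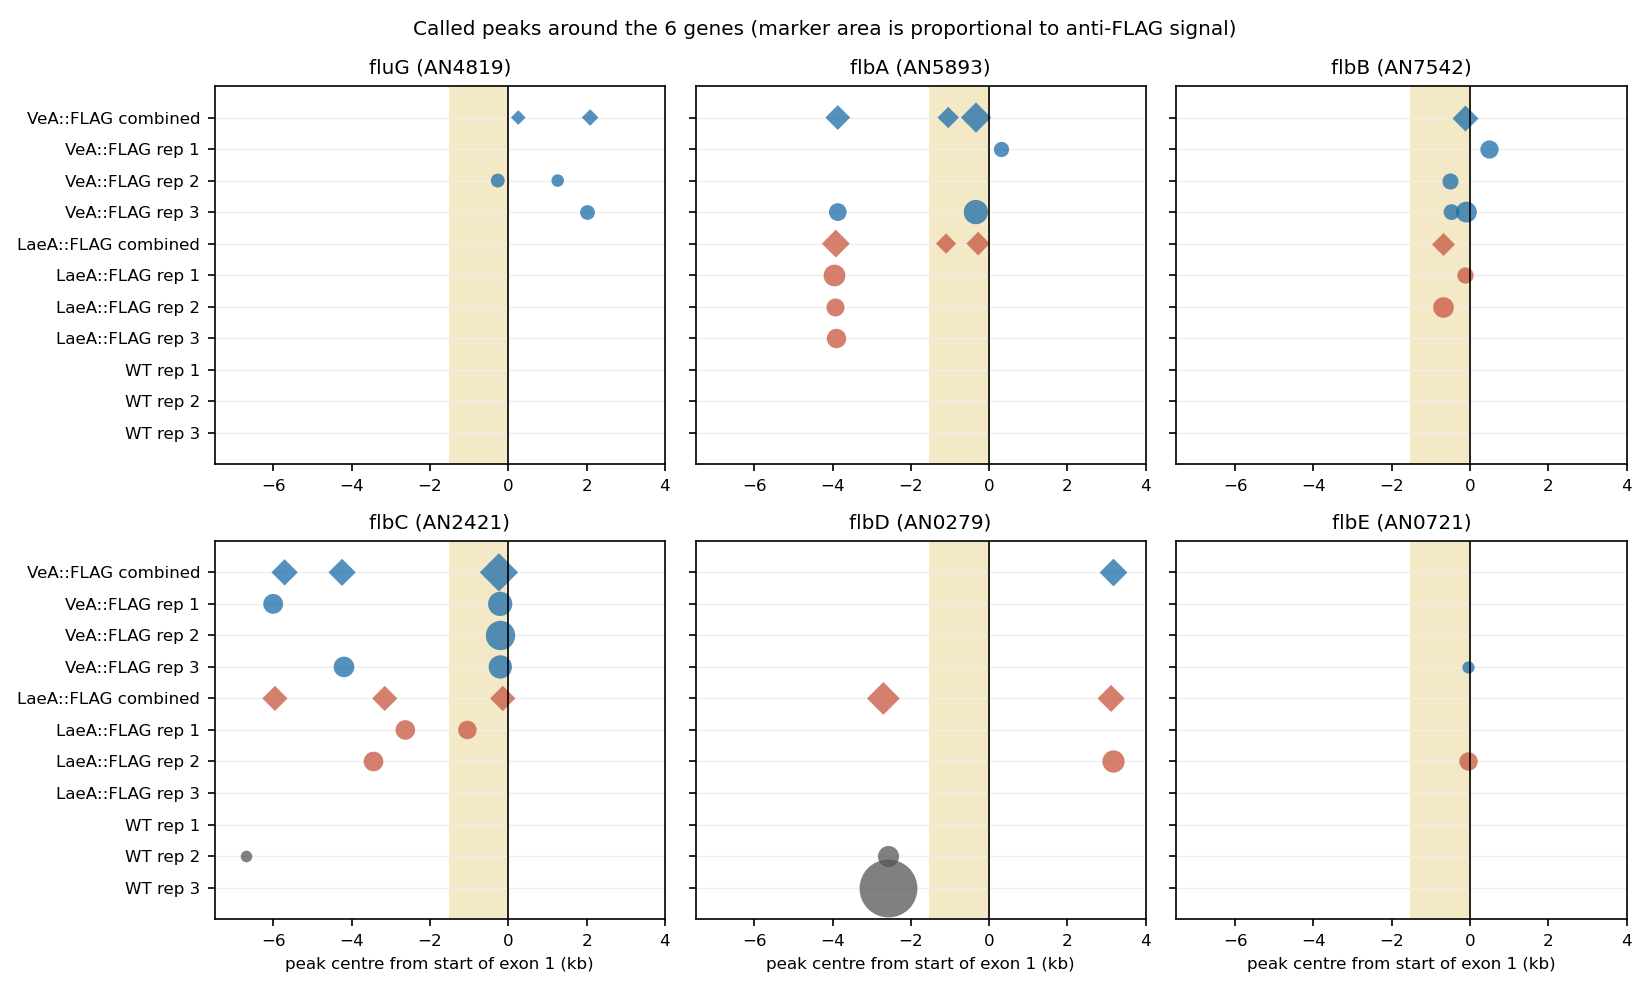
Every called peak of the 6 genes, by the distance of its centre from the start of exon 1 in kb (horizontal axis, negative is upstream) and by peak list (vertical axis), with diamonds for lists of pooled tags, circles for single libraries and marker area in proportion to anti-FLAG signal. The shaded band is the promoter of 1.5 kb. The flbC promoter is filled in all 3 VeA::FLAG libraries, the flbA site upstream of the promoter in all 3 LaeA::FLAG libraries, and the flbD site upstream of the promoter in 2 WT libraries.

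fluG, which encodes a protein with a glutamine synthetase-like domain, had 5 peaks, all of them in VeA::FLAG lists. Its start of exon 1 lay at position 893962 of chromosome III on the minus strand of the FGSC A4 assembly. The only fluG promoter peak was in VeA::FLAG replicate 2 at -269 bp (chromosome III, 894155 to 894307), with a signal of 266.75 from 50.5 tags (37.5 to 66.5) over an IgG signal of 0. The same library had a second peak inside the gene at +1262 bp, with 216.57 over an IgG signal of 0. VeA::FLAG replicate 1 had no fluG peak, and replicate 3 had 1, inside the gene at +2003 bp, with a signal of 302.19 over an IgG signal of 0. In the combined VeA::FLAG list, fluG peaks lay at +255 bp with 149.26 and at +2091 bp with 192.75, the second 2.45-fold above its IgG signal of 78.75. These were the weakest combined peaks among the 6 genes, ranked 4343 and 3265 by score among 5502. No fluG peak was listed in any LaeA::FLAG or WT library or in the combined LaeA::FLAG list.

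flbA, the gene for a regulator of G protein signalling, had 12 peaks, 6 of them at a single site in the intergenic DNA upstream. That site, on chromosome I from 1885230 to 1885568 (start of exon 1 at 1881495, minus strand), was called in LaeA::FLAG replicates 1, 2 and 3 with signals of 653.74, 448.16 and 521.42. The mean was 541.1 ± 104 (SD, n = 3), and the centres, at -3973, -3948 and -3907 bp, lay within 66 bp of each other. The tags behind these values were 141, 43.5 and 193, and the IgG signals of the same strain were 73.04, 72.57 and 106.97, so that the anti-FLAG signal was 8.95-fold, 6.18-fold and 4.87-fold above IgG. These signals are scaled to depth and come from called peaks only. By score the peak ranked 262 of 2471, 1207 of 2217 and 234 of 557 in LaeA::FLAG replicates 1, 2 and 3. The site is the only one of these genes present in LaeA::FLAG replicate 3.

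The same flbA site carried VeA::FLAG peaks. VeA::FLAG replicate 3 had a signal of 436.11 at -3866 bp over an IgG signal of 2.39, whereas replicates 1 and 2 had no peak there. The combined lists gave 427.02 at -3867 bp for VeA::FLAG (IgG 4.77) and 538.89 at -3917 bp for LaeA::FLAG (IgG 99.43, 5.42-fold), ranked 827 of 5502 and 308 of 3333. No WT library had a peak there. A signal as high as the lowest LaeA::FLAG value would be 357 tags in WT replicate 1, 51 tags in replicate 2 and 14.3 tags in replicate 3. The WT IgG signal over the merged region was 201.41.

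The flbA promoter was called mainly from pooled tags. In VeA::FLAG replicate 3 a peak at -339 bp had a signal of 817.27, 8.15-fold above IgG and ranked 96 of 5783, the highest flbA signal in any list. The combined VeA::FLAG peak at -336 bp had 631.63 over an IgG signal of 295.91, or 2.13-fold, and the combined LaeA::FLAG peak at -282 bp had 384.40 over 133.36, or 2.88-fold. The VeA::FLAG IgG signal in this merged region was higher than or equal to that of 96.6% of all merged regions. A second promoter locus was present in combined lists alone, at -1046 bp for VeA::FLAG with 315.32 over an IgG signal of 0 and at -1101 bp for LaeA::FLAG with 285.55 over 106.97, while the WT IgG signal reached 611.76 in the merged region there. VeA::FLAG replicate 1 had neither promoter peak, and its only flbA peak lay after the start at +310 bp with 321.81.

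flbB, which encodes a basic leucine zipper factor, had 8 peaks, and in the tagged strains it was named in 5 of 6 libraries. Its start of exon 1 lay at 1891974 of chromosome IV, minus strand. VeA::FLAG replicates 2 and 3 shared a promoter locus, with signals of 359.19 at -509 bp and 346.83 at -473 bp, both over an IgG signal of 0. Replicate 3 had a second promoter peak nearer the start, at -93 bp, with 600.94 over 59.66. VeA::FLAG replicate 1 had a peak of 462.23 inside the gene, at +493 bp, 3.59-fold above IgG and the only peak of a single library in this set under 4-fold.

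LaeA::FLAG replicate 1 had an flbB peak at -132 bp, with a signal of 366.28 over 87.65 (4.18-fold), and replicate 2 had one at -694 bp, with 587.25 over 76.81 (7.65-fold), so the 2 libraries named different loci. Replicate 3 and the 3 WT libraries had no flbB peak. The combined lists likewise chose different loci. The VeA::FLAG peak lay at -141 bp with 467.55 (7.84-fold, rank 749 of 5502), the LaeA::FLAG peak at -693 bp with 363.90 (3.61-fold, rank 860 of 3333), and their centres were 552 bp apart.

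flbE, the gene for the partner of FlbB, had the fewest peaks, with 2 at the same place. Around the start of exon 1 (chromosome VIII, 2681040, plus strand), VeA::FLAG replicate 3 had a signal of 206.04 at -46 bp from 30 tags (20.2 to 42.8), and LaeA::FLAG replicate 2 had 468.77 at -53 bp from 45.5 tags (33.3 to 60.8). Their folds over IgG were 7.19 and 4.40. No other library and neither combined list named flbE. The promoter of flbE held further VeA::FLAG peaks that the lists assigned to the neighbour AN0722, at -748 bp with 398.80 in replicate 2, at -414 bp with 398.34 in replicate 3 and at -414 bp with 263.92 in the combined list. No LaeA::FLAG or WT peak was assigned to AN0722 in this window.

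flbC, the gene for a zinc finger factor, had the most peaks (15) at the most loci (9), and it had the strongest promoter peak of the 6 genes. In VeA::FLAG replicates 1, 2 and 3 the promoter peak had signals of 810.37, 1191.12 and 752.03, a mean of 917.8 ± 238 (SD, n = 3), from 138.5, 225.5 and 109.5 tags. The peaks lay at -207, -223 and -204 bp from the start of exon 1 (chromosome VII, 3880417, plus strand), with centres within 19 bp. The IgG signal was 2.39 in each peak, which is 0.5 tags, and the anti-FLAG signals were 56.6-fold, 83.2-fold and 52.5-fold above the signal that 3 IgG tags would give. By score the peak ranked 191 of 4252, 45 of 5672 and 115 of 5783, near the top of each VeA::FLAG list.

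On pooled VeA::FLAG tags the flbC promoter peak (3880046 to 3880310) had a signal of 1016.15 from 514 tags (471 to 560) and ranked 82 of 5502. The combined LaeA::FLAG list also had a peak, centred 98 bp nearer the start at -141 bp, with 446.63 over an IgG signal of 165.40, or 2.70-fold, and rank 516 of 3333. None of the 3 LaeA::FLAG libraries had a peak there by itself. Instead LaeA::FLAG replicate 1 had a peak at -1045 bp, with 472.92 over 101.32. WT libraries had no peak in the flbC promoter, where the lowest VeA::FLAG signal would be 600 tags in WT replicate 1, 85.6 tags in replicate 2 and 24 tags in replicate 3. Over the merged region that spans this promoter (3880046 to 3880414) the IgG signal was 276.7 in WT, 171.06 in LaeA::FLAG and 88.3 in VeA::FLAG, the first at or above 93.8% of all merged regions. The part of this IgG signal in the missing WT call was not tested.

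**Figure D2:**
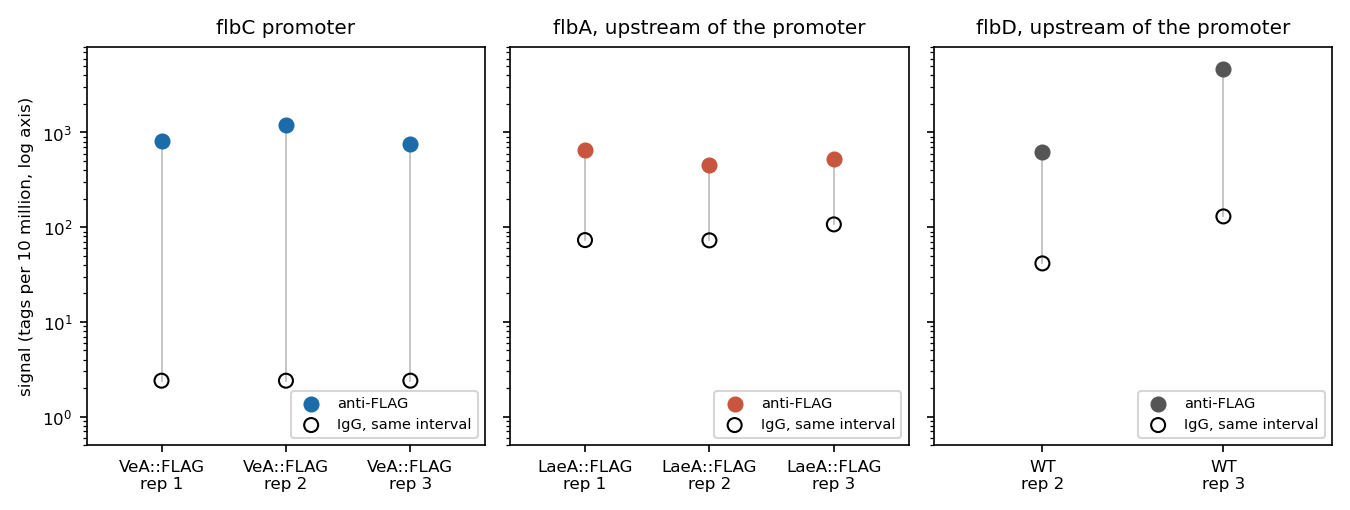
Anti-FLAG signal (filled) and IgG signal of the same strain in the same interval (open), in tags per 10 M on a log axis. The 3 sites drawn had peaks in several libraries of 1 strain. The flbB promoter locus shared by VeA::FLAG replicates 2 and 3 is not drawn. Each point is a library, and libraries of that strain without a peak are not drawn. The flbC promoter lies at 752.03 to 1191.12 over 2.39, the flbA site at 448.16 to 653.74 over 72.57 to 106.97, and the flbD site, in WT, at 614.93 and 4628.73 over 41.41 and 129.88.

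The long intergenic region upstream of flbC held 7 more loci, and these were scattered. VeA::FLAG replicate 1 had a peak at -6005 bp (544.15), VeA::FLAG replicate 3 at -4197 bp (587.20), LaeA::FLAG replicate 1 at -2629 bp (530.88) and LaeA::FLAG replicate 2 at -3453 bp (535.74). The combined VeA::FLAG list had peaks at -5713 bp (481.38) and -4245 bp (511.04), and the combined LaeA::FLAG list at -5960 bp (440.04) and -3156 bp (439.31). The WT peak of flbC was the farthest, at -6697 bp in replicate 2, with a signal of 184.48 from 21 tags (13.0 to 32.1). No upstream locus of flbC was called in 2 libraries of the same strain.

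flbD, the gene for a Myb-type factor, had 6 peaks and none in its promoter. Its strongest site was one that untagged cells also had. WT replicates 2 and 3 had peaks at -2581 and -2588 bp from the start of exon 1 (chromosome VIII, 4060736, plus strand), with signals of 614.93 from 70 tags (54.6 to 88.4) and 4628.73 from 148 tags (125 to 174), 14.8-fold and 35.6-fold above IgG. They ranked 62 of 1831 and 64 of 201 by score. The combined LaeA::FLAG peak at -2703 bp had 746.83, 6.5-fold above IgG, and ranked 121 of 3333, the highest rank of a LaeA::FLAG peak in this set. Its centre lay 122 and 115 bp from the WT centres, just beyond the 100 bp that joins peaks, and its interval (4057895 to 4058171) overlapped theirs (4058063 to 4058247 and 4058044 to 4058252). No single LaeA::FLAG library had the peak. The VeA::FLAG IgG signal in this merged region was 637.16, at or above 99.6% of all regions, and no VeA::FLAG list had an anti-FLAG peak there.

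The other flbD locus lay beyond the start, at +3169 bp in the combined VeA::FLAG list (533.77, 7.22-fold above IgG) and at +3114 bp in the combined LaeA::FLAG list (507.40, 3.09-fold). Among single libraries, LaeA::FLAG replicate 2 had it at +3159 bp with 685.12. The IgG signals in this merged region were at or above 98.3%, 99.5% and 94.2% of all regions in the VeA::FLAG, LaeA::FLAG and WT IgG libraries. The part of IgG signal in this locus was not tested.

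The number of the 6 genes with a peak was next compared among libraries, beside the share of all 9485 genes with a peak in the same library. Here and below, all genes are those named as nearest by a listed peak or a merged region. Genes that were never named are left out, so these shares are higher than shares of the whole genome. VeA::FLAG replicates 1, 2 and 3 had peaks for 3, 3 and 5 of the 6 genes, where 37.6%, 46.5% and 46.7% of all genes had one. LaeA::FLAG replicates had peaks for 3, 5 and 1, beside 23.2%, 20.7% and 5.59%, and WT replicates for 0, 2 and 1, beside 1.32%, 17.6% and 2.03%. The VeA::FLAG counts did not overlap the WT counts (3.67 ± 1.15 against 1.00 ± 1.00, SD, n = 3 each), whereas the LaeA::FLAG counts overlapped both. The difference of 2.67 genes between VeA::FLAG and WT had p = 0.1 by the exact two-sided permutation test, the smallest p that 3 against 3 libraries can give, and 0.45 after Benjamini-Hochberg adjustment over the 9 tests made. When equal numbers of top-scoring peaks (134 per library) were taken, the VeA::FLAG libraries had peaks for 0, 1 and 2 genes and the WT libraries for 0, 1 and 1, so that the counts overlapped and the difference was 0.333 (exact permutation p = 1). In WT replicate 1, whose whole list was 134 peaks, 1.32% of all genes had a peak. The share of all genes at this cut in the other libraries is not given here. LaeA::FLAG exceeded WT by 2.00 genes (exact permutation p = 0.3, adjusted 0.6) and VeA::FLAG exceeded LaeA::FLAG by 0.667 (exact permutation p = 1, adjusted 1). With LaeA::FLAG replicate 3 left out, the last difference turned to -0.333, and without VeA::FLAG replicate 3 it was 0.

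**Figure D3:**
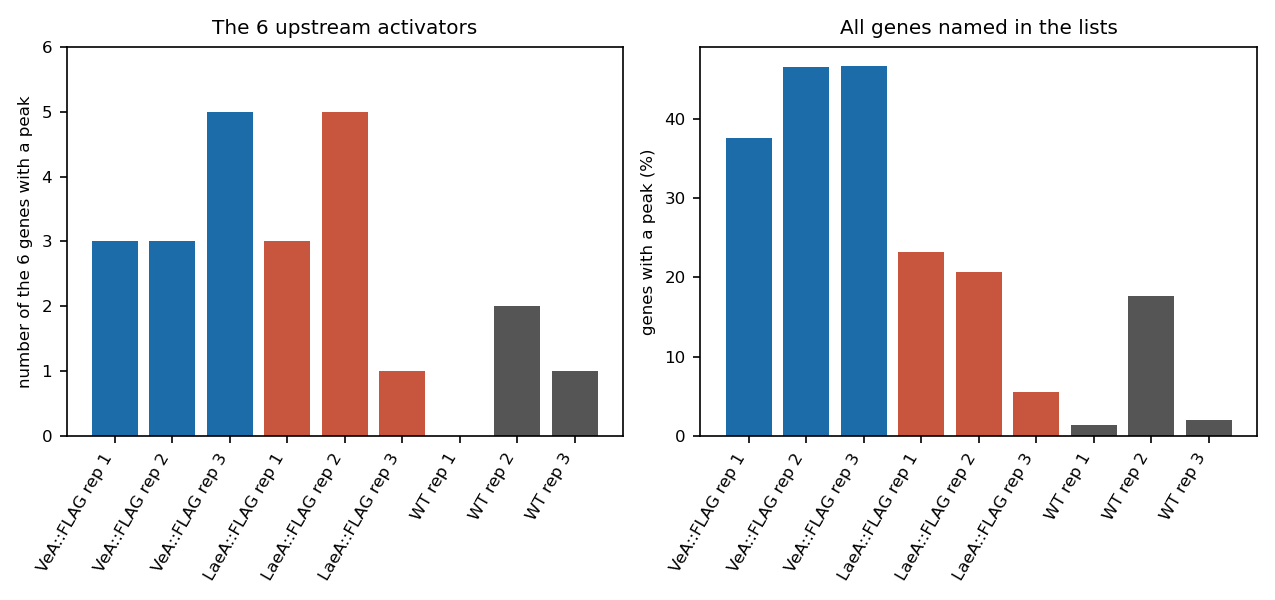
Left, the number of the 6 genes with at least 1 peak in each anti-FLAG library. Right, the percentage of all 9485 genes with at least 1 peak in the same library, with 1 bar per library. The VeA::FLAG bars stand at 3, 3 and 5 genes and the WT bars at 0, 2 and 1, while the share of all genes runs from 1.32% in WT replicate 1 to 46.7% in VeA::FLAG replicate 3.

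Counted by gene, whatever the locus, 4 of the 6 genes (fluG, flbA, flbB and flbC) had a peak in at least 2 VeA::FLAG libraries, beside 39.3% of all genes, and 2 (flbB and flbC) had one in all 3, beside 14.6%. For LaeA::FLAG, 3 genes (flbA, flbB and flbC) had a peak in at least 2 libraries, beside 9.24%, and flbA alone in all 3, beside 2.16%. In WT, flbD was the only gene with a peak in 2 libraries (1.25% of all genes), and none had one in all 3 (0.105%). A peak in all 3 libraries of the tagged strain and in no WT library was found for flbB in VeA::FLAG, beside 10.7% of all genes, and for flbA in LaeA::FLAG, beside 1.23%. None of the 6 genes had a peak in all VeA::FLAG libraries and in no LaeA::FLAG library, and 5.35% of all genes did.

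Promoter peaks were sparser. They were present for 1, 3 and 4 of the 6 genes in VeA::FLAG replicates 1, 2 and 3, beside 17.5%, 22.3% and 22.6% of all genes, and for 2, 2 and 0 in the LaeA::FLAG replicates, beside 9.69%, 8.84% and 2.61%. No WT library had a promoter peak of these genes, and 0.474%, 4.33% and 0.611% of all genes had one there. flbC was the only gene with a promoter peak in all VeA::FLAG libraries, flbB had one in 2 of them, and fluG, flbA and flbE in 1 each. In LaeA::FLAG, flbB had a promoter peak in 2 libraries and flbC and flbE in 1 each. VeA::FLAG exceeded WT by 2.67 genes (2.67 ± 1.53 against 0, n = 3, exact permutation p = 0.1, adjusted 0.45; 1 gene with equal numbers of top-scoring peaks, exact permutation p = 0.4), and the differences of LaeA::FLAG from WT and of VeA::FLAG from LaeA::FLAG were 1.33 each (exact permutation p = 0.4, adjusted 0.6).

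The signal summed over the peaks of the 6 genes was 2138.56, 2033.63 and 4048.61 in VeA::FLAG replicates 1, 2 and 3. It was 2023.82, 2725.04 and 521.42 in the LaeA::FLAG replicates and 0, 799.41 and 4628.73 in the WT replicates. The highest sum was thus in WT, and it came from the flbD site alone. VeA::FLAG differed from WT by 930.9 (2740.3 ± 1134.3 against 1809.4 ± 2474.1, SD, n = 3, exact permutation p = 0.6, adjusted 0.771) and LaeA::FLAG from WT by -52.6 (1756.8 ± 1125.8, exact permutation p = 1, adjusted 1). VeA::FLAG differed from LaeA::FLAG by 983.5 (exact permutation p = 0.4, adjusted 0.6). Once WT replicate 3 was left out, VeA::FLAG exceeded WT by 2340.6 and LaeA::FLAG exceeded it by 1357.1, and once LaeA::FLAG replicate 3 was left out the second difference was 565.0. Without WT replicate 1, VeA::FLAG exceeded WT by 26.2.

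In the lists called on pooled tags, VeA::FLAG had 10 peaks at 5 of the 6 genes, all but flbE, where 47.1% of all genes had a peak. LaeA::FLAG had 9 peaks at 4 genes, flbA to flbD, where 29.5% of all genes had one. Promoter peaks were present at flbA, flbB and flbC in both lists, where 25.8% of all genes had one in the VeA::FLAG list, 13.7% in the LaeA::FLAG list and 7.97% in both lists. Of the combined peaks 4 of 10 in VeA::FLAG and 4 of 9 in LaeA::FLAG lay in a promoter, beside 46.3% and 40.5% of all combined peaks. In the combined LaeA::FLAG list 6 of the 9 peaks were under 4-fold over IgG, all 4 promoter peaks among them, against 2 of 10 for VeA::FLAG. The share of all combined peaks under 4-fold is not given here. The IgG libraries also differed, with an IgG signal of 0 in 34.6% of all combined VeA::FLAG peaks and 0% of all combined LaeA::FLAG peaks. The 2 counts are therefore not a like comparison of the strains. flbA and flbC each had 3 peaks in both combined lists, and 1.16% and 0.611% of all genes had at least 3 in the VeA::FLAG and LaeA::FLAG lists.

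Intergenic sites made up much of the combined peaks of these genes. In VeA::FLAG 5 of 10 and in LaeA::FLAG 6 of 9 were annotated as intergenic, beside 6.42% and 7.86% of all combined peaks. The intergenic peaks of both strains lay at flbA, flbC and flbD. By the rule of centres within 100 bp, 5 loci were common to both combined lists, 3 at flbA, the promoter of flbC and the flbD site beyond the start. They were 5 of 10 VeA::FLAG peaks and 5 of 9 LaeA::FLAG peaks of the 6 genes, beside 15% and 24.8% of all combined peaks. With centres within 50 bp, or with peaks at least 4-fold over IgG, the number common to both fell to 1.

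Most combined peaks of the 6 genes lacked support from at least 2 libraries, as did most combined peaks of all genes. Among 10 combined peaks of VeA::FLAG, 6 lay within 100 bp of a peak of at least 1 VeA::FLAG library, 1 of at least 2 and 1 of all 3, beside 77%, 30.1% and 7.29% of all combined VeA::FLAG peaks. Among 9 combined peaks of LaeA::FLAG, 3 lay near a peak of at least 1 LaeA::FLAG library and 1 near peaks of all 3, beside 47.4% and 2.76% (10.1% for at least 2). The supported peaks were the flbC promoter in VeA::FLAG and the upstream flbA site in LaeA::FLAG, described above. No combined peak had a WT peak centre within 100 bp, and 2.4% of all VeA::FLAG and 4.35% of all LaeA::FLAG combined peaks did.

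The IgG libraries show how much signal untargeted precipitation left at these genes. The merged regions numbered 24 of 21897, with 4 for flbA, 3 for flbB, 7 for flbC, 3 for flbD, 1 for flbE and 6 for fluG. The median IgG signal over the 24 regions was 83.5 for the VeA::FLAG strain, 129 for the LaeA::FLAG strain and 152 in WT, and the medians over all regions were 40.6, 92.4 and 77.2. Scaled to region length, the medians per kb were 215, 447 and 369 against 156, 368 and 306. Of the 24 regions 15, 20 and 15 were above the median of all regions in the 3 libraries. The highest IgG signals were at flbD in VeA::FLAG (637.16) and LaeA::FLAG (429.77) and at flbA in WT (611.76). fluG was low in WT, at 20.71 to 69.65 in its 6 regions. With 1 IgG library per strain, none of these values was tested.

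**Figure D4:**
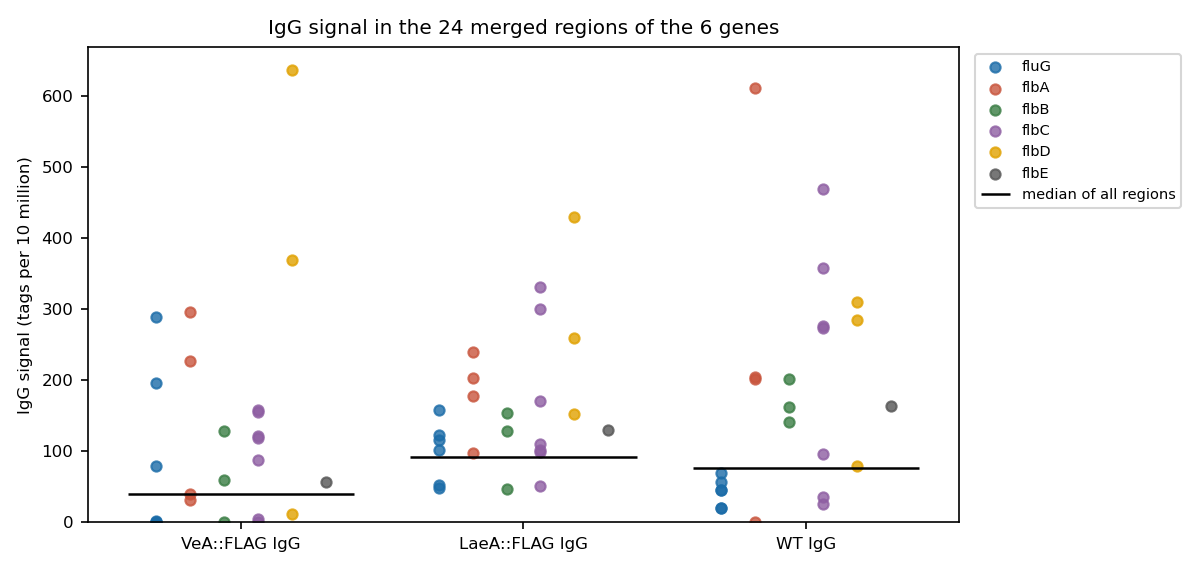
IgG signal in tags per 10 M (vertical axis) of the 24 merged regions of the 6 genes in the IgG library of each strain. Each point is a region, coloured by gene, and the black line is the median over all 21897 regions (40.6, 92.4 and 77.2). The highest points are flbD in VeA::FLAG and LaeA::FLAG IgG and flbA in WT IgG.

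Other genes of the conidiation pathway were counted in the same way. Among 13 listed genes, 5 had a promoter peak in the combined VeA::FLAG list, 3 in the combined LaeA::FLAG list and 0 in both, beside 25.8%, 13.7% and 7.97% of all genes named by a peak or merged region. The 13 genes were not limited to named genes, so counts and shares are not fully alike. The VeA::FLAG genes were medA, a modifier of conidiophore development (570.35 at -694 bp and 605.93 at -1460 bp), wetA, which acts in conidium maturation (257.99 at -1466 bp), AN8129 (545.63 at -241 bp), AN0651 (370.68 at -511 bp) and AN6305 (219.44 at -232 bp). At AN0651, WT replicate 2 also had a promoter peak, at -386 bp with 597.36 (2882962 to 2883146 of chromosome VIII), which overlapped the combined VeA::FLAG interval (2882797 to 2883061) and had the higher signal. The LaeA::FLAG genes were sfaD, for a G protein beta subunit (289.21 at -376 bp), gpgA, for a G protein gamma subunit (172.06 at -119 bp), and tmpA, for a membrane protein of conidiation (265.05 at -403 bp). medA also had a LaeA::FLAG peak just outside its promoter, at -1584 bp with 422.47. nsdD and vosA, repressors of conidiation, had no promoter peak in a combined list, but both had combined peaks elsewhere. At vosA, WT replicate 2 also had a peak, with 272.33 (2386542 to 2386726 of chromosome VII). It overlapped the combined VeA::FLAG interval (2386395 to 2386659), where the VeA::FLAG signal was lower, at 208.57. At nsdD both tagged strains had combined peaks past the start of exon 4. The highest were 1851.4 for VeA::FLAG (rank 12 of 5502) and 979.66 for LaeA::FLAG (rank 63 of 3333). WT replicate 2 had an nsdD peak of 351.39 at another position. brlA, the shared target of the flb factors, abaA, which acts after brlA, and stuA, a modifier of development, were not named as nearest gene by any peak of the 11 lists. A missing call at these genes means that no peak was assigned to them at this depth, not that the proteins were absent. The 13 genes were counted by nearest gene only, so a promoter peak assigned to a neighbour would be missed. The paper lists stuA in the core section of its LaeA network, whose targets it defined by promoter peaks.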

How the data were processed

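Anti-FLAG and IgG ChIP-seq libraries of vegetatively grown VeA::FLAG, LaeA::FLAG and WT cells were assigned to groups from the strain and antibody in the labels. Per the study's methods, reads were mapped with bowtie2 and peaks called with HOMER 4.11 at high sensitivity settings. The control used in calling is not given in the sources used here. The signal deposited by the authors is tags per peak or merged region scaled to 10 M tags of a library, and the peak score deposited by the authors was used only to rank peaks. Signal steps were 0.5 tags, so no count model was fitted. Per the file headers, coordinates refer to the FGSC A4 assembly and the combined lists hold the pooled tags of 3 replicates. The lists give the distance to the nearest exon start. Since the starts of exon 1 implied by the peaks of a gene agreed to the base, distances from exon 1 were calculated from them. The number of columns with no sample was 0.

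Peaks were joined when centres lay within 100 bp. A promoter was 1.5 kb upstream of the start of exon 1. IgG signals under 3 tags were replaced by 3 tags in folds. Differences in means between libraries were tested by exact two-sided permutation (Python 3.11.15, scipy 1.17.1, numpy 2.4.6, pandas 2.3.3), with Benjamini-Hochberg adjustment over 9 tests. The script was tested on simulated data. Genes with AN identifiers that a listed peak or merged region named as nearest formed the background. Genes never named, tRNA entries and upstream reading frame entries were left out. Symbols came from a table of another assembly (ASM1142v1), used for names only, which matched 8883 of 9485 genes and all 6 members. The 6 genes were named in full, and 13 pathway genes by counts, with values where a combined list had a promoter peak and for nsdD and vosA. AN8129, AN0651 and AN6305 are named by identifier because their symbols differ or are missing in the table. The genes, lists and tests were chosen with earlier results of these data known. Alternatives were another fold, centre distance, promoter length and exon start, equal list lengths, the removal of peaks near WT peaks or over 1% of tags, signal per kb, the replicate number as a block, each replicate left out and, chosen after seeing the data, promoter peaks by position whatever the nearest gene. No sequence was used here, so motif matches were not counted.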

Additional observations from a re-analysis of the deposited data

How the results depend on the processing

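Of 129 alternatives tried for 18 results, 5 turned the direction and 8 gave a difference of 0 or a count or ratio beyond the limits set for an unchanged result. The other 116 kept the direction and, for the library tests, stayed on the same side of the threshold, although some differences shrank greatly. Some of the 116 could not change a difference and say nothing about stability. Removing peaks near WT peaks or over 1% of tags took out no peak of these genes in a single library. The replicate block leaves a difference as it is by construction. The lowest p of the 9 library tests under any alternative was 0.1, so a kept side says nothing about stability. With equal numbers of top-scoring peaks (134 per library), VeA::FLAG minus WT fell to 0.333 genes with a peak and 1 gene with a promoter peak and turned to -827.7 in summed signal, and LaeA::FLAG minus WT was -0.667 genes with a peak, 0 genes with a promoter peak and -1747.9 in summed signal. Leaving out 1 library gave, for genes with a peak, 2 to 3.17 (VeA::FLAG minus WT), 1 to 3 (LaeA::FLAG minus WT) and -0.333 to 1.67 (VeA::FLAG minus LaeA::FLAG), for promoter peaks 2 to 3.5, 1 to 2 and 0.667 to 2.17, and for signal 26.2 to 2340.6, -957.3 to 1357.1 and 329.3 to 1467.6. At least 4-fold over IgG, no gene kept a combined LaeA::FLAG promoter peak (0 against 3) and 1 combined peak of each strain was common to both, as with centres within 50 bp (1). The WT ratio of IgG medians, 1.96, was 1.21 per kb. The causes were not tested, except that a shorter list holds fewer peaks by construction.

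Deviations of same-numbered libraries correlated at -0.01 to 0.0241, so no pairing by replicate number was seen. Calls per library are sparse, so these values cannot show whether same-numbered libraries were prepared together, and no label says so. With the replicate number as a block the differences were the same as without it (2.67 genes with a peak for VeA::FLAG minus WT), and the smallest p was 0.25, the lowest that 3 pairs allow. Motif matches in promoters were not run, because no sequence was used here. In WT replicate 3, where 1 tag was 31.3 units, the 5th percentile of peak signal was 547, above most signals of the 6 genes in the tagged strains.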

Other observations

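Of the 24 merged regions of these genes, 3 held no peak of the 11 lists. Upstream of flbD, the region at -3290 bp from the start of exon 1 had IgG signals of 11.93 (VeA::FLAG), 259.18 (LaeA::FLAG) and 79.06 (WT). In fluG, the region at +604 bp had 288.75, 158.34 and 56.47, and the region at +3275 bp had 195.68, 115.45 and 45.18 in the same order.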
